A study of Mus musculus with 86 samples.

Results

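SOX2 and CTCF binding was described at the genes of 10 Polycomb components: Ezh2, Eed, Suz12, Jarid2, Mtf2, Rnf2, Ring1, Bmi1, Cbx7 and Kdm2b. Every peak that lay within 50 kb of the gene body of one of them was taken, on the mm10 build and with RefSeq gene positions of GRCm38.p6. This gave 699 of the 327957 peaks in 8 lists. The 10 windows covered 1585.81 kb in all. The cells were mouse embryonic stem cells of strain 129S5/SvEvBrd, grown on gelatin in serum with LIF. Mitotic cells had been held in nocodazole, which blocks the spindle, at 100 ng/ml for 6 h and were then collected by shake-off; asynchronous cells were unsynchronised cultures of the same strain. Chromatin immunoprecipitation with sequencing (ChIP-seq) was used with antibodies to SOX2 (R&D Systems AF2018) and to CTCF (Abcam ab70303), in 2 mitotic and 2 asynchronous libraries for each factor. Of the 86 libraries of the series, 52 for histone marks and 26 of input were not used. Whether the replicates are separate cultures is not said in the labels, and their spread may be technical. Peak lists hold no expression values, so the labelled cell type was not tested, nor was the purity of the mitotic cells.

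Polycomb proteins keep developmental genes silent and form 2 main complexes. Polycomb repressive complex 2 (PRC2) methylates histone H3 at lysine 27, with EZH2 as its catalytic subunit. Polycomb repressive complex 1 (PRC1) attaches ubiquitin to histone H2A, with RNF2 or RING1 as its catalytic subunit. In embryonic stem cells, SOX2 is a core factor of the pluripotency network that binds enhancers and promoters, and CTCF is a zinc finger protein that marks insulators and the anchors of chromatin loops. Most transcription factors leave many of their sites when chromosomes condense in mitosis, and sites that stay occupied are called bookmarked. The comparison of mitotic with asynchronous cells asks which sites near these genes are still called.

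Far fewer peaks of both factors were called near the 10 genes in mitotic than in asynchronous cells, with a lower ratio of mitotic to asynchronous peaks for SOX2 than for CTCF. Mitotic cells had 12 and 1 SOX2 peaks near these genes in replicates 1 and 2 (mean 6.5 ± 7.78, SD, n = 2), against 209 and 166 in asynchronous cells (187.5 ± 30.4, SD, n = 2). The ratio of the means was 0.0347, or 28.8-fold fewer peaks. Mitotic cells had 28 and 20 CTCF peaks (24 ± 5.66, SD, n = 2), against 129 and 134 in asynchronous cells (131.5 ± 3.54, SD, n = 2), a ratio of 0.183, or 5.48-fold fewer. For neither factor did the mitotic and asynchronous counts overlap. The two-sided exact permutation test gave p = 0.333 for each factor, the smallest value that 2 libraries against 2 allow. Without mitotic replicate 1 the SOX2 ratio was 0.00533, and without mitotic replicate 2 it was 0.064. These are counts of called peaks, and whether binding itself was lower was not tested. Bulk chromatin also cannot tell fewer bound cells from less binding in each cell.

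The whole lists held 1976 and 408 SOX2 peaks in mitotic cells, against 90266 and 63504 in asynchronous cells, and 20142 and 15338 CTCF peaks in mitotic cells, against 68328 and 67995 in asynchronous cells. The lists give no read totals, and the nearest measure of depth in them was the lowest local background of each list. It was 2.62 and 1.64 reads per 100 bp in the mitotic SOX2 libraries, against 2.48 and 1.61 in the asynchronous ones. For CTCF it was 3.62 and 3.77 in the mitotic libraries, against 3.36 and 3.71 in the asynchronous ones. This background was close between conditions and lower in replicate 2 of SOX2 in both. It need not equal the depth of the library itself, since the control behind it is not given, and its part in the shorter lists was not tested. The windows of the 10 genes held 13.2 and 10.5 asynchronous SOX2 peaks per 100 kb, against 4.54 and 3.18 in the windows of all protein-coding genes. For mitotic SOX2 peaks these densities were 0.757 and 0.0631 near the 10 genes, against 0.109 and 0.0211. For asynchronous CTCF peaks they were 8.13 and 8.45, against 3.59 and 3.56, and for mitotic CTCF peaks 1.77 and 1.26, against 1.06 and 0.805. Peaks of every library were denser near these genes than near protein-coding genes at large. In mitotic SOX2 replicate 2 this rested on 1 peak, and no test was made of the densities.

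**Figure D1:**
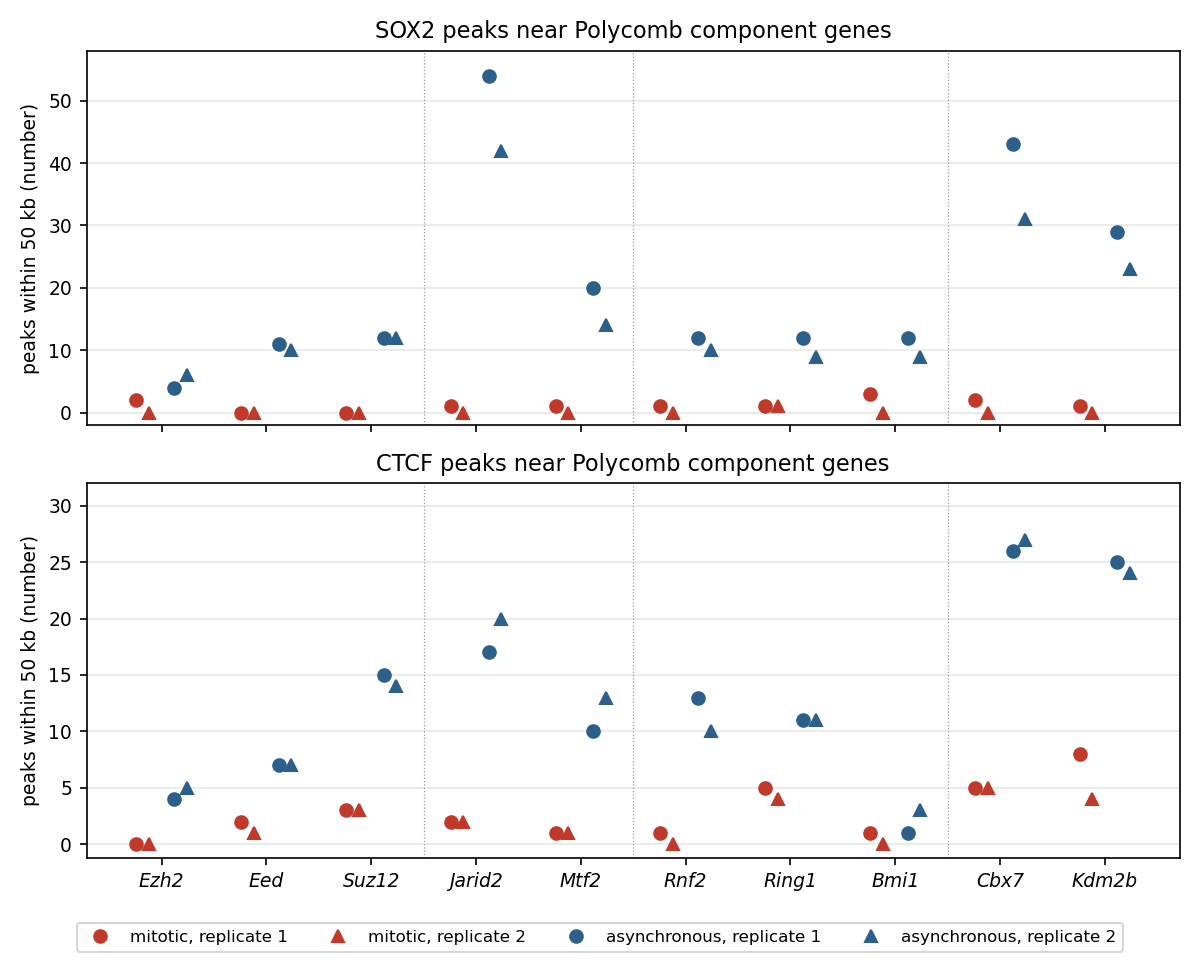
Number of SOX2 (top) and CTCF (bottom) peaks within 50 kb of each gene, by library; red, mitotic; blue, asynchronous; circles and triangles, replicates 1 and 2; dotted lines part the PRC2 core, PRC2 accessory, PRC1 core and PRC1 reader or recruiter genes. Jarid2 had 54 and 42 asynchronous SOX2 peaks, and no gene had more than 3 SOX2 peaks in a mitotic library.

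Regions that can be followed across conditions were defined next. Overlapping asynchronous peaks of a factor were merged, and a merged region with a peak in both asynchronous libraries was kept. Mitotic calls were then read from these regions: an overlap of 1 bp or more with a peak of the mitotic library was enough. Near the 10 genes there were 134 SOX2 regions, of 51672 in all, and 99 CTCF regions, of 57992 in all. Region strength was the percentile of its highest fold enrichment within each asynchronous list, averaged over both lists. The fold is the authors' value, the coverage at a peak's summit over a local background, and ranks peaks only within its own list. Mitotic and asynchronous folds printed side by side below are therefore not a measure of change in binding. All 12 and 1 mitotic SOX2 peaks near these genes overlapped a peak in both asynchronous lists, where 94.6% and 99.0% of all mitotic SOX2 peaks did. The same held for 27 of 28 and 20 of 20 mitotic CTCF peaks, where 97.9% and 99.2% of all did, so the shares near the genes were close to those of the whole lists.

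**Figure D2:**
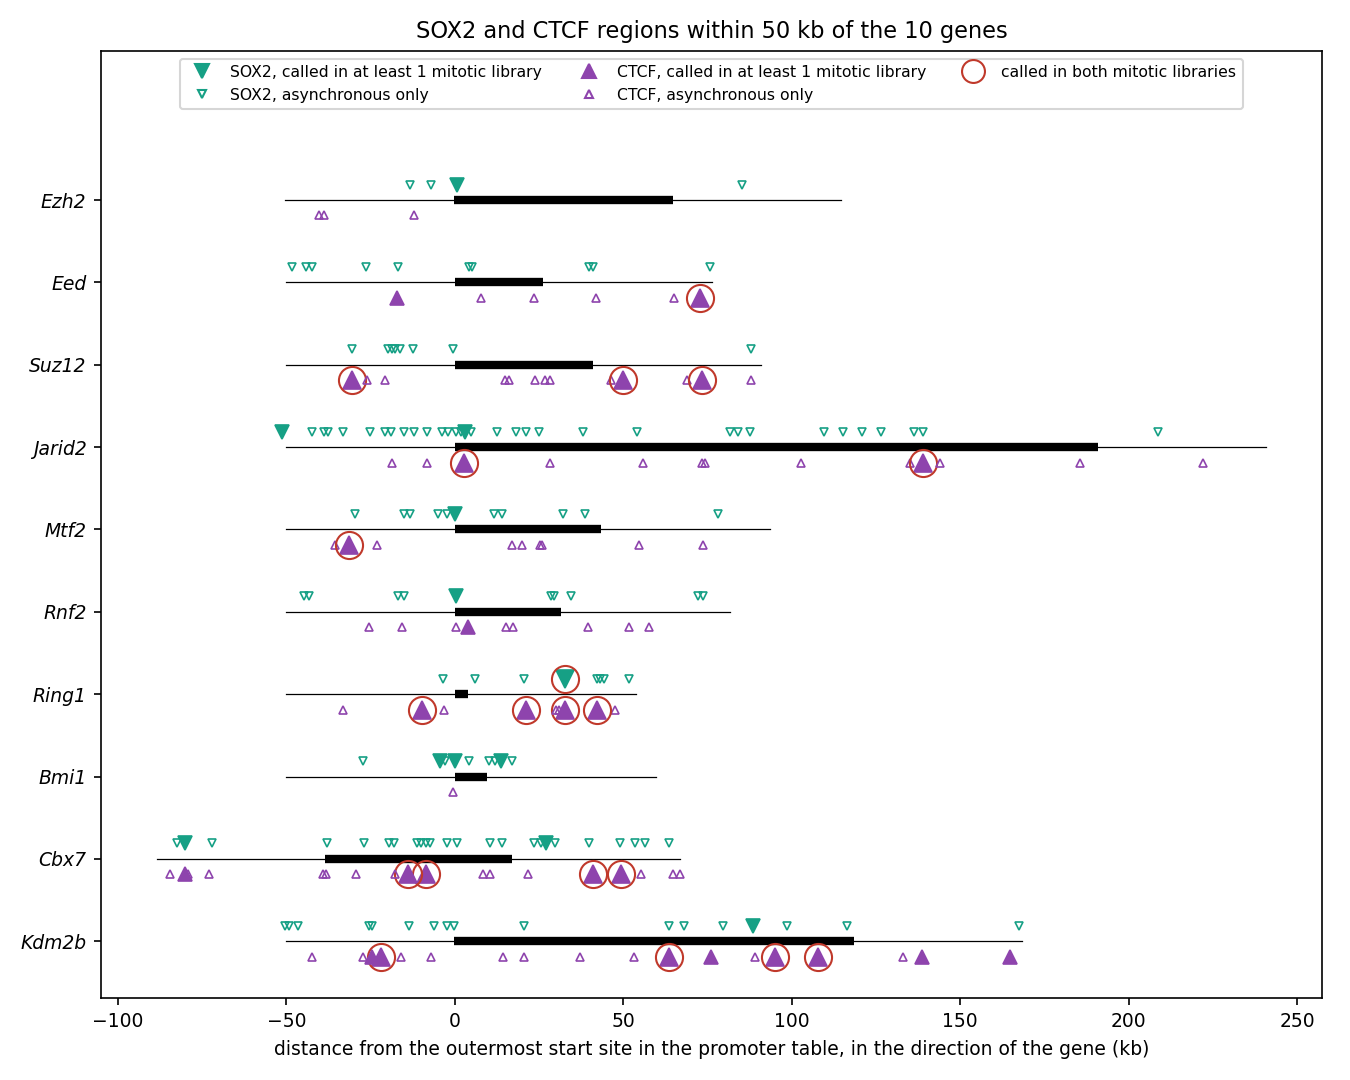
Position of each reproducible asynchronous region by its distance in kb from the outermost start site of the gene in the RefSeq promoter table (x axis); SOX2 above and CTCF below each gene (thick bar, gene body; thin line, 50 kb on either side). Filled symbols were called in at least 1 mitotic library and ringed symbols in both: 1 SOX2 region, near Ring1, and 19 CTCF regions, near 7 of the 10 genes.

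The core of PRC2 is made of EZH2, of EED, which reads trimethylated lysine 27 on histone H3, and of SUZ12, the scaffold that holds the complex together. Ezh2 had the fewest asynchronous SOX2 peaks of the 3, with 2 and 0 in mitotic cells, against 4 and 6 in asynchronous cells. Eed had none in either mitotic library, against 11 and 10 in asynchronous cells, and Suz12 likewise had none, against 12 and 12. The mitotic SOX2 peaks of Ezh2 both fell in 1 region over its start site (chr6:47593991-47596024, asynchronous folds 5.39 and 6.28). They had folds of 4.47 and 3.48 in mitotic replicate 1, and the first of these summits rested on 29 reads over a local background of 5.71. The strongest SOX2 regions of all 3 genes lay away from their start sites and were called in neither mitotic library. They were chr7:89997409-89998860, 16.4 kb from Eed (folds 23.3 and 14.6), chr11:79978940-79981189, 11.9 kb from Suz12 (20.3 and 14.6), and chr6:47601744-47602627, 6.47 kb from Ezh2 (11.3 and 6.63).

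CTCF gave another order among the PRC2 core genes. Suz12 had 3 CTCF peaks in each mitotic library, against 15 and 14 in asynchronous cells, Eed had 2 and 1, against 7 and 7, and Ezh2 had none, against 4 and 5. The strongest CTCF region of Ezh2 was chr6:47634827-47635800, 39.6 kb from the gene (folds 9.21 and 7.16). All 3 mitotic peaks of Suz12 were called in both replicates. They lay in the neighbouring gene Utp6 (chr11:79962210-79962862), between Suz12 and Crlf3 (chr11:80042655-80043528), and within Crlf3 (chr11:80066278-80066939). The Utp6 region had mitotic folds of 12.5 and 6.51, on 106 and 83 reads at the summit, and asynchronous folds of 8.09 and 12.3. The region between Suz12 and Crlf3, the strongest asynchronous CTCF region of Suz12, had mitotic folds of 3.97 and 2.83. The region within Crlf3 had 3.62 and 2.40. In replicate 2 these weaker peaks ranked low in their list, at fold percentiles of 3.78 and 0.665. At Eed, chr7:89907577-89908752, 45.9 kb from the gene and 3.95 kb from Ccdc81, was called in both mitotic libraries, with folds of 11.2 and 5.62, against asynchronous folds of 12.2 and 11.3. A second region, chr7:89997568-89999130, was called in mitotic replicate 1 only (fold 4.79). It overlapped the strongest SOX2 region of Eed, where no mitotic SOX2 peak was called.

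JARID2 and MTF2 are accessory subunits of PRC2: JARID2, a Jumonji family protein without demethylase activity, stimulates the complex, and MTF2 binds DNA at CpG islands. Jarid2 had the most asynchronous SOX2 peaks of the 10 genes, and it is also the longest of them (190.87 kb). Mitotic cells had 1 and 0 SOX2 peaks there, against 54 and 42 in asynchronous cells. The asynchronous counts exceeded those of 99.9% of 21887 protein-coding genes in both replicates, whose medians were 7 and 5. Per 100 kb of window, Jarid2 had 18.6 and 14.4 asynchronous SOX2 peaks, below the 27.7 and 19.96 of Cbx7. Its peaks made 33 regions, of which 2 were called in mitotic replicate 1 and none in replicate 2. The first, chr13:44733135-44734510, was inside the gene with its mitotic summit 2.63 kb from the start site (mitotic fold 4.29; asynchronous folds 6.25 and 8.07). The second, chr13:44677575-44681077 (asynchronous folds 24.8 and 26.4), marked the edge of the 50 kb window. The region was 49.7 kb from the gene body and within it, whereas its mitotic peak, with a fold of 4.34, was 50.9 kb away and so is not among the 12 mitotic peaks. Jarid2 regions with asynchronous folds of this size and no mitotic call included chr13:44704016-44708782 (26.3 and 31.5), chr13:44727842-44729219 (35.0 and 22.4) and chr13:44751357-44752436 (23.2 and 31.99).

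CTCF peaks at Jarid2 numbered 2 and 2 in mitotic cells, against 17 and 20 in asynchronous cells. Both regions were called in each mitotic library. The stronger, chr13:44732905-44734129, overlapped the SOX2 region inside the gene and had mitotic folds of 8.73 and 4.54, against asynchronous folds of 12.4 and 12.2. The other, chr13:44869518-44870034, had mitotic folds of 3.42 and 2.88 over high local backgrounds of 39.7 and 45.1 reads, against asynchronous folds of 7.18 and 8.64. By the distance between log2(peaks + 1) over the 8 libraries, the protein-coding genes most like Jarid2 were Grik3 (0.983), Ptprg (1.02) and Jmjd1c (1.02). Each had 1 and 0 mitotic SOX2 peaks, and Grik3 had 39 and 32, Ptprg 52 and 40 and Jmjd1c 35 and 28 asynchronous ones. These counts were among those used to choose the genes, so their likeness to Jarid2 follows from the choice.

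Mtf2 held the strongest SOX2 region near the 10 genes. Mitotic cells had 1 and 0 SOX2 peaks, against 20 and 14 in asynchronous cells. The region over its first start site, chr5:108065067-108066494, was called in mitotic replicate 1 with a fold of 3.59, and had asynchronous folds of 22.2 and 30.5 (strength percentile 98.9). The region over its second start site, chr5:108076055-108078818, was the strongest of all 134, with asynchronous folds of 32.5 and 39.4 (99.8), and was called in neither mitotic library. Mtf2 had 1 CTCF peak in each mitotic library, against 10 and 13 in asynchronous cells. The peak was in chr5:108033905-108034767, 30.9 kb from the gene, with mitotic folds of 5.66 and 4.53, against asynchronous folds of 8.13 and 8.67. The strongest CTCF region of Mtf2, chr5:108119989-108120862 (asynchronous folds 9.54 and 8.73), 0.694 kb from Tmed5, was called in neither mitotic library.

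The catalytic core of PRC1 pairs RNF2 (RING1B) or RING1 (RING1A) with a PCGF protein such as BMI1. All 3 genes had a mitotic SOX2 peak in replicate 1, and Ring1 had the only SOX2 peak near the 10 genes that was called in both mitotic libraries. Rnf2 had 1 and 0 SOX2 peaks in mitotic cells, against 12 and 10 in asynchronous cells. Its mitotic peak had a fold of 3.70 and lay in the region over the start site (chr1:151499769-151501412, asynchronous folds 5.23 and 3.71). Bmi1 had 3 and 0, against 12 and 9, the most mitotic SOX2 peaks of the 10 genes. They lay over the start sites of its neighbour Commd3 (chr2:18671580-18673270, mitotic fold 4.09), of Bmi1 itself (chr2:18676096-18678231, 4.95) and of the RefSeq gene Gm46725 (chr2:18689633-18691012, 4.48). The strongest asynchronous SOX2 regions of Rnf2 (chr1:151517348-151518466) and of Bmi1 (chr2:18673649-18674506) were called in neither mitotic library.

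Ring1 had 1 and 1 SOX2 peaks in mitotic cells, against 12 and 9 in asynchronous cells. Both mitotic peaks fell in chr17:33991770-33992364, 28.4 kb from Ring1 and 3.65 kb from H2-K1, a class I histocompatibility gene, so this region was nearer to another gene than to Ring1. It had mitotic folds of 4.95 (31 reads at the summit over a background of 5.47) and 4.84 (18 reads over 2.92), and asynchronous folds of 10.4 and 6.60. A CTCF region covered the same bases (chr17:33991591-33992726) and was also called in both mitotic libraries. Its mitotic folds were 10.6 and 7.27, against asynchronous folds of 17.6 and 12.5. The SOX2 and CTCF summits were 19 and 141 bp apart in the mitotic replicates, against 45 and 5 bp in the asynchronous ones.

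Of the PRC1 core genes, Ring1 had the most CTCF regions called in mitosis. It had 5 and 4 CTCF peaks in mitotic cells, against 11 and 11 in asynchronous cells. Both mitotic libraries called 4 of its 9 CTCF regions, where 24.5% of all CTCF regions were called in both. Besides the region shared with SOX2 these were chr17:33980788-33982861, chr17:34003189-34004123 and chr17:34033847-34034667, the last within Rxrb. Rnf2 had 1 and 0, against 13 and 10, in a region inside the gene (chr1:151496754-151497695) with a mitotic fold of 3.78 and asynchronous folds of 15.3 and 9.07. Bmi1 had 1 and 0, against 1 and 3. Its single reproducible region (chr2:18676259-18676769) was not called in mitosis, and its mitotic peak (chr2:18677464-18677676, fold 2.85) met a peak of asynchronous replicate 2 only. Bmi1 was the poorest of the 10 genes in CTCF, with more asynchronous peaks than 11.5% and 23.4% of protein-coding genes in replicates 1 and 2.

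CBX7 is the chromodomain protein that brings canonical PRC1 to trimethylated lysine 27 in embryonic stem cells, and KDM2B brings variant PRC1 to CpG islands through its CXXC zinc finger. Both genes were rich in peaks of both factors. Cbx7 had 2 and 0 SOX2 peaks in mitotic cells, against 43 and 31 in asynchronous cells, and these asynchronous counts exceeded those of 99.7% of protein-coding genes. Kdm2b had 1 and 0, against 29 and 23, and the asynchronous counts exceeded those of 98.6% and 98.9% of genes in replicates 1 and 2. The mitotic SOX2 peaks of the Cbx7 window lay within other genes, Apobec3 (chr15:79904367-79906084, mitotic fold 4.95; asynchronous folds 11.1 and 17.7) and Pdgfb (chr15:80012139-80013348, 4.48; 5.48 and 7.19). The mitotic peak of Kdm2b lay over an internal start site (chr5:122899503-122900890, 3.56; 5.90 and 9.20). The strongest SOX2 regions, chr15:79908727-79909429 in Apobec3 and chr5:122990944-122991899, 1.67 kb from Kdm2b, were called in neither mitotic library. The RefSeq span of Cbx7 reaches well beyond its start site in the promoter table, so its window extends farther on that side.

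Kdm2b had 8 and 4 CTCF peaks in mitotic cells, against 25 and 24 in asynchronous cells, and Cbx7 had 5 and 5, against 26 and 27. Kdm2b thus had the most of the 10 genes in mitotic replicate 1, and Cbx7 in replicate 2. Each had 18 reproducible CTCF regions, the most of the 10 genes. At each gene 4 of the 18 were called in both mitotic libraries, where 24.5% of all CTCF regions were. At Cbx7 these were chr15:79882916-79883803, chr15:79891050-79892358, chr15:79940654-79941874 and chr15:79945693-79948010. The last 2 lay within the RefSeq span of the gene, at -8.49 and -13.9 kb from its start site in the promoter table. The first had mitotic folds of 12.5 and 8.58. The region at chr15:79940654-79941874, with mitotic folds of 12.5 and 8.51, was the strongest CTCF region near the 10 genes (asynchronous folds 15.7 and 17.97). At Kdm2b these were chr5:122880957-122882097, chr5:122893732-122894700 and chr5:122925057-122926074 within the gene, and chr5:123010625-123011448, 3.63 kb from Orai1. The highest mitotic folds there were 10.4 and 7.46, at chr5:122925057-122926074. Kdm2b had 4 further regions called in mitotic replicate 1 only, the strongest of them chr5:123013363-123014464 near Orai1, and Cbx7 had 1, within Pdgfb (chr15:80012422-80012939).

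Across the 10 genes, mitotic replicate 1 called 12 of the 134 SOX2 regions, a share of 8.96% (95% Wilson interval 5.20 to 15.0, which covers counting error only), where 3.37% of all 51672 SOX2 regions were called. Mitotic replicate 2 called 1 of 134, or 0.746% (0.132 to 4.11), where 0.755% of all regions were called. The same 1 region was called in both, where the share over all regions was 0.675%. Averaged over the 2 mitotic libraries, 4.85 ± 5.80% of the SOX2 regions near these genes were called, against 2.05 ± 1.84% of all others (SD, n = 2). The difference of 2.80 percentage points had p = 1 in a two-sided exact sign-flip permutation test over the 2 libraries, whose smallest possible p is 0.5. It rested on replicate 1: the difference was 5.60 points in that library and -0.00851 points in replicate 2. When only peaks with a fold of at least 5 were used, it was -1.29 points, with the other sign. The highest fold of a mitotic SOX2 peak near the genes was 4.95. The share near the genes was thus 0 under that cut, and the sign of the difference could not be positive.

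For CTCF, mitotic replicate 1 called 26 of 99 regions, or 26.3% (18.6 to 35.7), where 33% of all 57992 CTCF regions were called. The other 73 had no call in either library, where 66% of all regions had none. Replicate 2 called 19, or 19.2% (12.6 to 28.0), where 25.4% were called over all. All 19 were also called in replicate 1, where the share with calls in both was 24.5% over all regions. The mean share was 22.7 ± 5.0% near the 10 genes, against 29.2 ± 5.36% elsewhere (SD, n = 2), a difference of -6.52 points, with p = 0.5 in the exact sign-flip permutation test, the smallest it can give. The share was lower near these genes in both mitotic libraries, and both intervals included the share over all regions. When only peaks with a fold of at least 5 were used, the difference was 4.75 points, with the other sign. The CTCF share exceeded the SOX2 share near the genes by 17.9 points (two-sided exact permutation test, p = 0.333, the smallest possible).

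All 10 genes had reproducible asynchronous regions of SOX2 and of CTCF, where 85.7% and 87.7% of all protein-coding genes had them. By gene, 8 of the 10 had a SOX2 region called in at least 1 mitotic library, where 17.6% of all protein-coding genes had one; Eed and Suz12 had none. Only Ring1 had a SOX2 region called in both, where the share of all genes was 3.67%. CTCF regions with a call in at least 1 mitotic library, which were 34% of all CTCF regions, lay near 8 of the 10 genes, where 71.9% of all genes had one; Ezh2 and Bmi1 had none. The 7 genes with a CTCF region called in both libraries, where the share of all genes was 63.6%, were Eed, Suz12, Jarid2, Mtf2, Ring1, Cbx7 and Kdm2b. The gene shares are a description: windows with more regions have more chances to hold a called one, and the windows of these genes were rich in SOX2 regions.

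**Figure D3:**
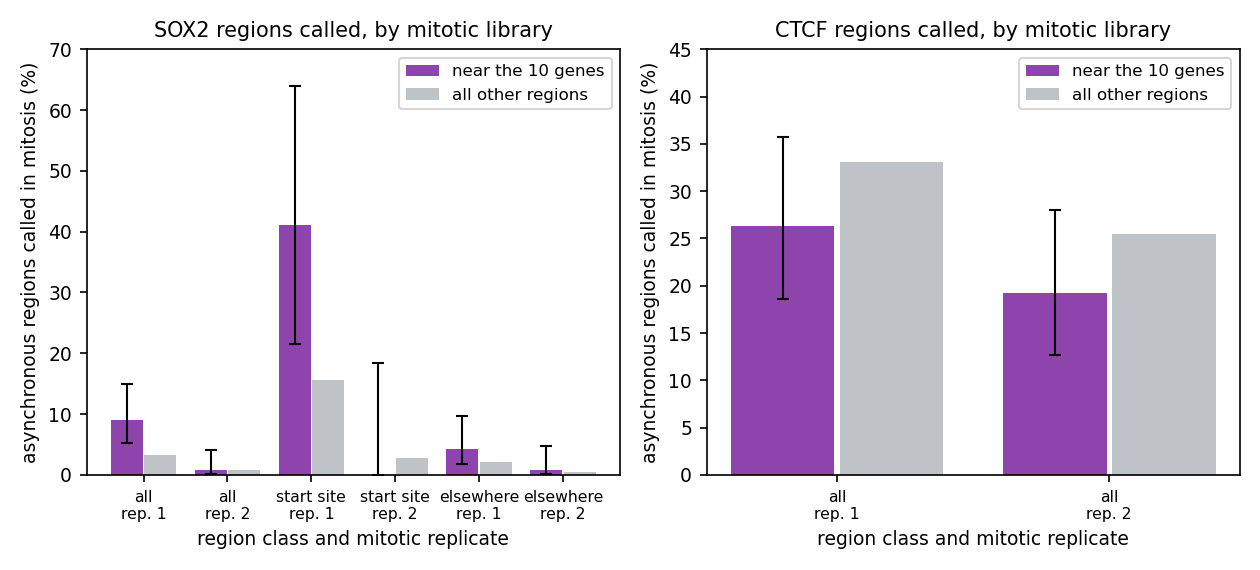
Share (%) of reproducible asynchronous SOX2 (left) and CTCF (right) regions called in each mitotic replicate; purple, regions near the 10 genes with 95% Wilson intervals as error bars; grey, all other regions of the factor. SOX2 regions are also split into those over a start site and those elsewhere; mitotic replicate 1 called 7 of the 17 at start sites near these genes, and replicate 2 called none.

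The SOX2 regions called in mitotic replicate 1 lay mostly over start sites. Of the 134 SOX2 regions 17 covered an annotated start site, or 12.7%, where the share over all regions was 9.29%. Mitotic replicate 1 called 7 of these 17, or 41.2% (21.6 to 64.0), where 15.6% of all start-site regions were called. It called 5 of the other 117, or 4.27% (1.84 to 9.62), where 2.11% were called over all. Replicate 2 called 0 of 17 (interval 0 to 18.4), where 2.75% were called over all, so a share below that bound was not detectable with this number of regions. The 7 regions were those of Ezh2, Mtf2, Rnf2, Bmi1, the internal start of Kdm2b, and the neighbours Commd3 and Gm46725. CTCF had 1 region over a start site among its 99, where the share over all CTCF regions was 4.69%.

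In the promoter windows of RefSeq, which run from 250 bases before to 50 bases after each start site, mitotic replicate 1 had a SOX2 peak at 3 of the 10 genes (Mtf2, Bmi1 and Kdm2b), where 3.05% of 17492 protein-coding genes had one. Replicate 2 had none, where the share of all genes was 0.486%. Asynchronous SOX2 peaks met the windows of 9 and 7 of the 10 genes, where the shares of all genes were 45.4% and 30.9%; Eed was the gene without one in either replicate. Mitotic CTCF peaks met none of the 10, where the shares of all genes were 7.09% and 4.7%, and asynchronous CTCF peaks met 2 and 2, where they were 21.8% and 22.7%.

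The 250 bases before the start site are printed for the 3 promoters with a mitotic SOX2 peak, 5′ to 3′ on the strand of the gene, from RefSeq on GRCm38.p6. They are the first start of Mtf2 (chr5:108065424-108065673, plus strand), the start of Bmi1 (chr2:18676768-18677017, plus strand) and an internal start of Kdm2b (chr5:122900351-122900600, minus strand). Capitals mark the match to the SOX motif ACAANG on either strand; there was none in the window of Bmi1.
Mtf2: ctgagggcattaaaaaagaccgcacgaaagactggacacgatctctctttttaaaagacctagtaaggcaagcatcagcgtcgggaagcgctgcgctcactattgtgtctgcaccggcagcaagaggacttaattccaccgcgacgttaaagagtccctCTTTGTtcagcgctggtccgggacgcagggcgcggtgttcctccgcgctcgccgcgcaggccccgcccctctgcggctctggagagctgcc
Bmi1: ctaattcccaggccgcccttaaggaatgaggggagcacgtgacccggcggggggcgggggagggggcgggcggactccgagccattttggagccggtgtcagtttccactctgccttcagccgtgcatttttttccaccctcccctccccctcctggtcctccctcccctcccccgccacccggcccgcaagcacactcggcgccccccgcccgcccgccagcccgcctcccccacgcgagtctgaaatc
Kdm2b: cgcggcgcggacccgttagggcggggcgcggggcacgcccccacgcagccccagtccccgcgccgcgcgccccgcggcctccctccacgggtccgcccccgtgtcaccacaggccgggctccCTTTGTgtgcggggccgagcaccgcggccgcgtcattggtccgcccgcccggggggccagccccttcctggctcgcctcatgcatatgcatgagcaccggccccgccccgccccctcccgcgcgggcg

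In the Mtf2 window the motif was on the opposite strand (CTTTGT), 91 to 86 bases before the start site. Relative to the start site, the mitotic SOX2 summit was at -76 and the asynchronous summits at -68 and -78. In the Kdm2b window the motif was also CTTTGT, 128 to 123 bases before the start, the mitotic summit was at -142, and the asynchronous summits at -167 and -182. In the Bmi1 window, which was 70.4% G or C, the mitotic summit was at -64, and the asynchronous summits at -3 and 3. Across the 15 promoters of the 10 genes in the table, 6 held the SOX motif, where 36.3% of 32851 promoters did, so the motif was about as frequent as in promoters at large. These 6 belonged to Ezh2, Mtf2 and Kdm2b only. The printed match of Kdm2b was counted in 2 overlapping windows. The core of the CTCF motif, searched as CC, any 3 bases, AG, any 2 bases and GGC, was in none of the 15, where 7.17% of all held it. Both motifs were searched on both strands. At Ezh2 and Rnf2 the mitotic summits lay inside the gene, 746 and 361 bases past the Ezh2 start and 377 bases past the Rnf2 start, beyond the printed kind of window.

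**Figure D4:**
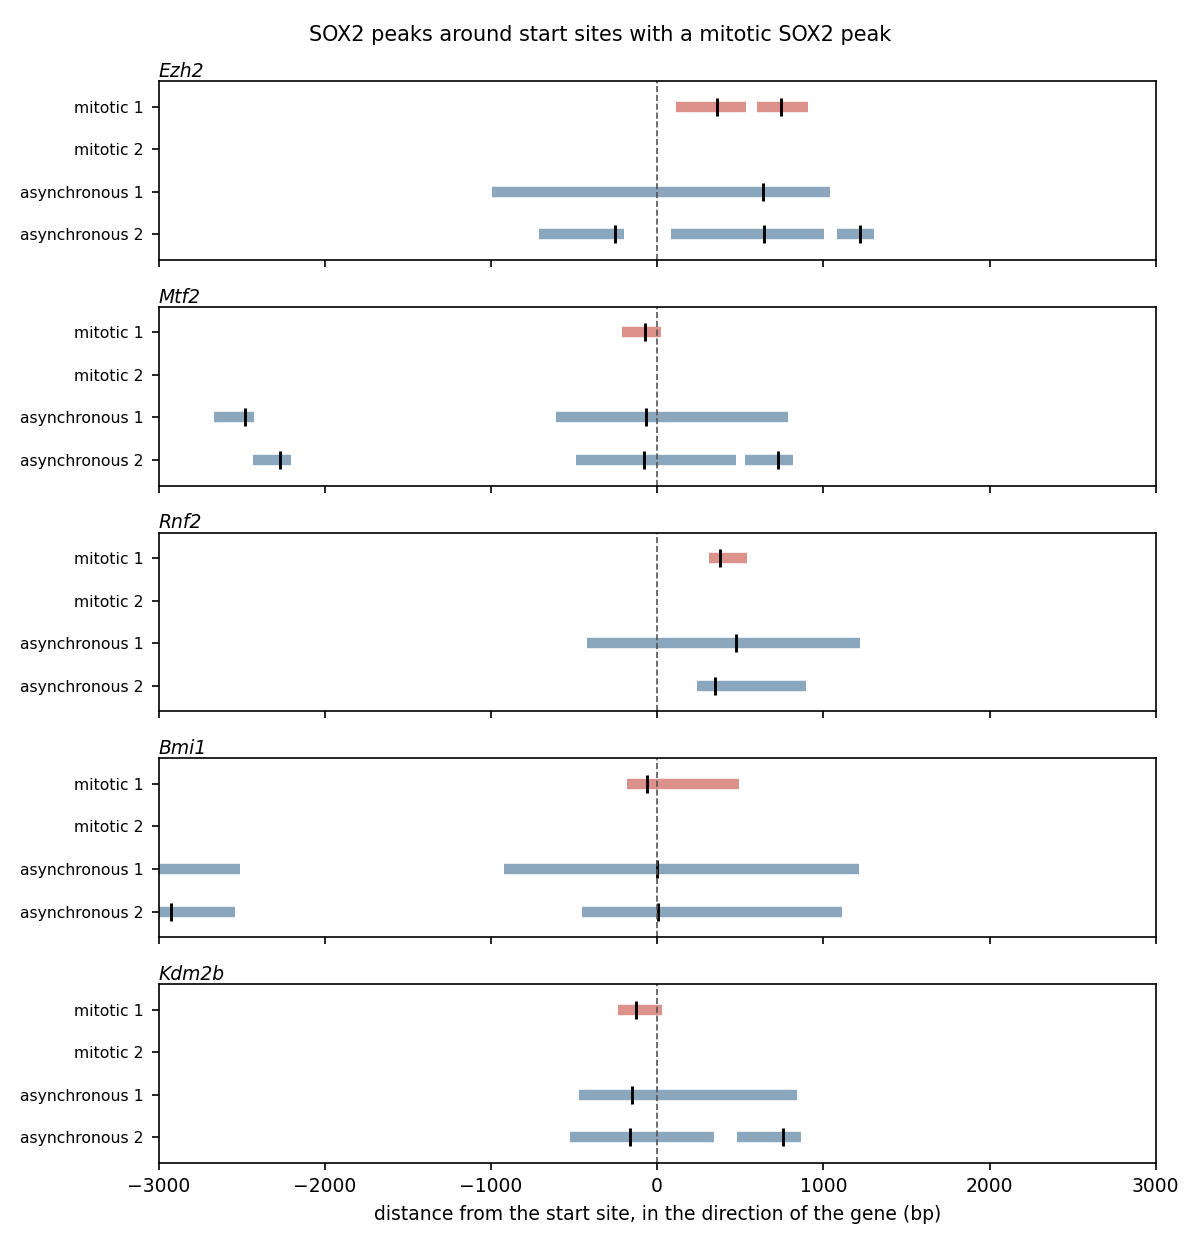
SOX2 peaks around the start sites of the 5 genes with a mitotic SOX2 peak there, by distance from the start site in bp (x axis) and library (rows); bars, peaks; black ticks, summits; red, mitotic; blue, asynchronous. The mitotic peaks, all of replicate 1, were 230 to 678 bp wide and lay within wider asynchronous peaks.

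Part of the SOX2 and CTCF regions near these genes coincided. Of the 134 SOX2 regions 29 overlapped a CTCF region, or 21.6%, where 20.3% of all SOX2 regions did; of the 99 CTCF regions 27 overlapped a SOX2 region, or 27.3%, where 18.3% of all CTCF regions did. At the 29 shared regions, counting a call only within the reproducible region of each factor, mitotic replicate 1 called both factors at 3, SOX2 alone at 3, CTCF alone at 13 and neither at 10. In mitotic replicate 2 these numbers were 1, 0, 11 and 17. CTCF was thus called at 55.2% and 41.4% of the 29 in replicates 1 and 2, where it was called at 43.1% and 34.2% of all 10497 SOX2 regions that overlap CTCF. SOX2 was called at 6 and 1 of the 29, where 8.54% and 1.99% of those in the genome were called, and at 6 of the other 105 in replicate 1, where the share was 2.05%. The 3 regions with both factors were at Ring1, inside Jarid2 and within Pdgfb near Cbx7. The SOX2 region at the start site of Bmi1 is counted as SOX2 alone, although a mitotic CTCF peak of replicate 1 (fold 2.85) lay in it, since that peak missed the reproducible CTCF region; its summit was 648 bp from the mitotic SOX2 summit. At the Jarid2 site the SOX2 and CTCF summits were 327 bp apart in mitotic replicate 1, against 355 and 339 bp in the asynchronous replicates, and at the Pdgfb site 107 bp, against 136 and 103 bp. Among CTCF regions, mitotic replicate 1 called 13 of the 27 that overlapped SOX2, or 48.1% (30.7 to 66.0), where 41% were called over all such regions. It called 13 of the other 72, or 18.1% (10.9 to 28.5), where 31.2% were called over all. Replicate 2 called 10 of the 27, or 37.0% (21.5 to 55.8), and 9 of the 72, or 12.5% (6.72 to 22.1). In the rest of the genome it called 32.4% and 23.9% of such regions. This split was not tested.

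The CTCF regions called in mitosis were mostly the stronger ones in asynchronous cells. Their median strength percentile was 84.9 (61.4 to 97.9) where both mitotic libraries made the call. It was 81.9 (10.9 to 97.9) where at least 1 did and 33.1 (5.22 to 83.2) where neither did. Over all CTCF regions these medians were 84.3, 81.6 and 43.1, so the contrast was not particular to these genes. The median of all 99 was 46.8, against 57.7 over all CTCF regions of the genome. Of the 99 CTCF regions 7 were in the strongest 10% of all CTCF regions, and all 7 were called in both mitotic libraries; in the rest of the genome 89.4% and 81.3% of such regions were called in replicates 1 and 2. These 7 were near Cbx7 (2), Ring1 (2), Kdm2b, Jarid2 and Eed. The 12 SOX2 regions with a call in at least 1 mitotic library, where the share over all regions was 3.45%, had a median of 77.5 (49.2 to 98.9). The 122 with none, where the share over all regions was 96.6%, had a median of 53.9 (6.74 to 99.8). Over all SOX2 regions these medians were 84.2 with a call and 60.4 with none. The 134 SOX2 regions had a median of 57.3, against 61.3 over all SOX2 regions. Of the 134, 16 were in the strongest 10% of all SOX2 regions, and mitotic replicate 1 called 3 of them and replicate 2 none, where 9.55% and 4.39% of such regions were called in the rest of the genome. The 3 were the region 49.7 kb from Jarid2, the first start site of Mtf2 and the Apobec3 region near Cbx7.

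**Figure D5:**
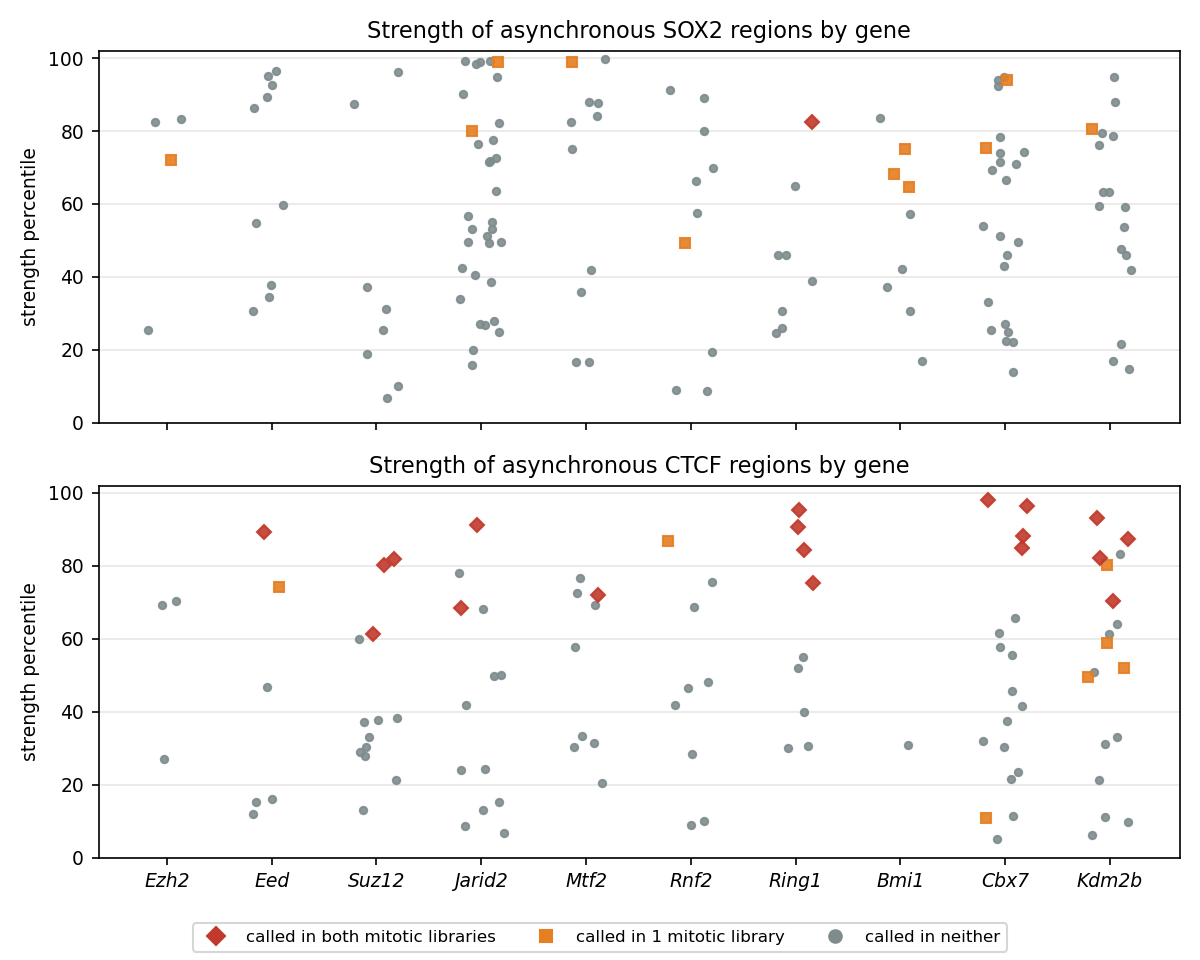
Strength percentile (y axis, mean of the region's rank by fold in both asynchronous lists) of each SOX2 (top) and CTCF (bottom) region, by gene; red diamonds, called in both mitotic libraries; orange squares, in 1; grey circles, in neither. The CTCF regions called in both libraries sit between 61.4 and 97.9, whereas strong SOX2 regions such as those of Jarid2, Eed and Mtf2 include many called in neither.

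The peaks shared between replicates of a condition were counted last. Of the 12 and 1 mitotic SOX2 peaks 8.33% and 100% overlapped a peak of the other replicate, against 67.9% and 90.4% of the asynchronous SOX2 peaks. For CTCF these shares were 67.9% and 100% in mitotic cells, against 79.8% and 75.4% in asynchronous cells. Over whole lists the SOX2 shares were 18.2% and 88.2% in mitotic cells, against 58.8% and 87.6% in asynchronous cells, and the CTCF shares 72.2% and 95.8%, against 86.8% and 86.9%. The asynchronous CTCF shares were thus lower near the 10 genes than over the whole lists; no test was made of this. Shares of lists of such unequal length are bounded by the shorter list. The 11 mitotic SOX2 peaks of replicate 1 outside the Ring1 region therefore have no second mitotic library behind them.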

How the data were processed

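Peak lists of 8 mouse embryonic stem cell ChIP-seq libraries were used, grouped by sample title and treatment. The tools named per the submitters' processing notes are MACS2 2.1.1.20160309, SAMtools, BWA 0.7.17 and CASAVA 1.4, and the build is mm10. How they were run, and against which control, is not given in the sources used here. For each library the authors deposited 1 narrowPeak list, with a score, a fold enrichment (a ratio of summit coverage to local background), a −log10 p-value and a −log10 q-value for each peak. The lowest −log10 q of each deposited list was 1.31 to 1.48. The deposited scores were not used. Fold served only to rank, filter and describe peaks within a list.

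Lists called separately carry no change in coverage, so the calls themselves were compared between conditions. Summit reads and local background were solved from fold and −log10 p under a Poisson model, and came out whole within 0.01 reads for 99.9% to 100% of up to 1500 peaks per list. Gene positions, start sites and promoters came from RefSeq GRCm38.p6 tables; no genome was used, so motifs were searched in promoters only. The members and the gene lists were chosen with earlier results of these data known. All 10 genes were named, with every region called in mitosis (at most 5 per gene and factor) and the strongest region; 2 further strong Jarid2 regions and the Bmi1 peak outside reproducible CTCF regions were picked after their values were seen. Tests were exact permutation tests over libraries, and shares have Wilson intervals at 95% confidence. Libraries were not paired by replicate number in the main tests. Alternatives were a −log10 q or a fold of at least 5, gene distances of 10 and 100 kb, summits within 100 bp, overlaps over 50% of the shorter interval, regions seen in either asynchronous library, a replicate block and leaving out each library; mitotic lists at equal length were added after the data were seen. Python 3.11.15, numpy 2.4.6, pandas 2.3.3 and scipy 1.17.1 were used. Tested on simulated data, planted calls were recovered at 51672 of 51672 regions, and overlaps equalled those of bedtools 2.31.1 (19831 of 20142 intervals overlapping). The planted peaks were cut from the regions themselves, so this checks the overlap code and not the recovery of weak or shifted peaks.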

Additional observations from a re-analysis of the deposited data

How the results depend on the processing

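Peak lists of 2 libraries a group limit what can be said: no test over libraries could pass 0.05, folds cannot be compared between lists, and 1 mitotic SOX2 library supplied 12 of the 13 mitotic SOX2 peaks. Directions held for the mitotic over asynchronous peak ratios and for the CTCF minus SOX2 difference under each alternative run. Over all results, 75 planned and 6 added values were counted as unchanged. For ratios and differences this meant the same direction, and for mean shares a value within 1 SD of the main one. Another 4 mean shares moved by more, and 3 planned and 1 added differences changed sign. The SD of the SOX2 share exceeded its mean, so even a share of 0 counted as unchanged. Several values changed greatly in size, as the SOX2 values here show. Leaving out 1 library at a time gave ratios of 0.00533 to 0.064 for SOX2 and 0.152 to 0.213 for CTCF, mean shares of 0.746% to 8.96% for SOX2 and 17.2% to 26.3% for CTCF, and a CTCF minus SOX2 difference of 12.3 to 21.98 points. The difference between regions near the 10 genes and all others ranged over -0.00851 to 5.60 points for SOX2, with the negative value without mitotic replicate 1, and over -8.06 to -6.26 points for CTCF. With a fold of at least 5, no mitotic SOX2 peak remained near the genes, so that the SOX2 ratio and share were 0, this difference became -1.29 points for SOX2 and 4.75 points for CTCF, and the CTCF share was 28.9%. With mitotic lists shortened to equal length, an alternative chosen after seeing the data, the SOX2 ratio was 0.00533, the SOX2 share 0.746% and the SOX2 difference -0.0202 points. The CTCF share was 14.6% over regions of either asynchronous library. With a replicate block it was 17.6%, and the SOX2 share was 3.17%, the ratios 0.0317 and 0.183 for SOX2 and CTCF, the CTCF minus SOX2 difference 14.4 points, and the differences from other regions 1.88 points for SOX2 and -7.65 points for CTCF. These 2 CTCF shares use more regions, since 1 asynchronous list then suffices. Libraries were not paired by replicate number in the main tests. The correlation of deviations between libraries of the same number was 0.0188 for SOX2 and -0.0149 for CTCF over 21887 genes. Counts of called peaks, which for mitotic SOX2 were 0 at most genes, cannot show whether such libraries belong together.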

Other observations

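Other genes of the Polycomb and trithorax systems were counted in the same way, with lists chosen when earlier results of these data were known. The 9 further PRC2 genes had 80 SOX2 regions within 50 kb, of which mitotic replicates 1 and 2 called 4 and 1, and the 24 further PRC1 genes had 221, of which they called 8 and 3. Regions called in both libraries were near Rbbp4, a histone-binding subunit of PRC2, near Phc1 and Phc2, polyhomeotic subunits of canonical PRC1, and near the neighbouring genes Cbx2 and Cbx8, whose chromodomain proteins can take the place of CBX7. None of the 30 SOX2 regions of the 5 genes for the deubiquitinase PR-DUB and the H3K27 demethylases was called in either mitotic library. Over all SOX2 regions 3.37% and 0.755% were called, and a share of that size was not detectable over 30 regions. The 11 trithorax and COMPASS genes, which encode H3K4 methyltransferases that oppose Polycomb and their partners, had 76 SOX2 regions, of which replicate 1 called 9 (11.8%), at Wdr5, Kmt2b, Kmt2c, Setd1a, Setd1b, Kmt2a and Dpy30, and replicate 2 none.

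CTCF regions called in both mitotic libraries made up 17 of 90 for the further PRC2 genes, 42 of 214 for the further PRC1 genes, 8 of 45 for the PR-DUB and demethylase genes and 28 of 113 for the trithorax genes, where 24.5% of all CTCF regions were called in both. Among the highest numbers were those at Cbx8 (7 of 18), Kmt2d (6 of 19), and Auts2 (5 of 30), Cbx2 (5 of 14) and Setd1b (5 of 14). Cbx2 and Cbx8 are neighbours, so the same regions can count for both.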
